A study of Mus musculus with 6 samples.

Results

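The 42 voltage-gated and HCN ion channel genes described here encode sodium channel alpha and beta subunits, calcium channel pore-forming and auxiliary subunits, voltage-gated and calcium-activated potassium channel subunits with their partners, and HCN2. They were chosen by symbol, and their probe sets are those that the array's annotation pairs with that single symbol, 108 of 45037 probe sets in all. Of the 42 genes, 39 could be compared among 12903 genes. Cacnb3 has no probe set under its symbol alone, and the probe sets of Kcnh7 and Kcnn3 were too dim on all 6 arrays. RNA of the hippocampus of Phf8 knockout (KO) and wild-type (WT) mice was measured on Affymetrix arrays, 3 arrays for KO and 3 for WT, all labelled as 10 weeks old and of the C57BL/6 background. According to the methods, KO mice were hemizygous males (Phf8-/Y) whose germline deletion in the catalytic region came from EIIa-Cre, so that every tissue lacks the deleted part from early in life, and WT mice were their littermates. The methods speak of the hippocampus of 3 KO mice, or of littermates, being run as a sample, which can be read as 1 mouse per array or as a pool, and the labels do not say that the arrays stand for separate mice, so that p-values measure only the spread between these samples. Phf8 encodes a histone demethylase.

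Voltage-gated channels open or close a pore as the membrane potential changes. Sodium channels carry the upstroke of the action potential, potassium channels end it and set firing rate, and calcium channels couple it to transmitter release, dendritic signals and gene expression. HCN channels open on hyperpolarisation and set the resting conductance of pyramidal cell dendrites. Pore-forming alpha subunits determine the ion and the gating, and auxiliary subunits govern how many channels reach the membrane and how fast they inactivate.

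Values are log2 MAS5 signals, so a difference of 1 is a doubling of the signal. Signals of different probe sets are not comparable with each other, and only differences between arrays are read. Where the signals of a marker list are summed, the sums are also compared between arrays only. The brightest probe sets weigh most in such a sum, so it can differ from the median of the list. A gene is represented by its brightest usable probe set. Phf8 itself had 8.23, 8.55 and 7.99 on the KO arrays, against 9.90, 9.66 and 9.73 on the WT arrays. Every KO array was below every WT array, with a difference of -1.51 (SE 0.17, limma adjusted p = 0.0527, which was 0.00378 when KO replicate 3 was left out). The array of KO replicate 3 stood apart: across kept probe sets it correlated with the rest at 0.899 to 0.925, while the remaining 5 arrays correlated with each other at 0.968 to 0.985. All measured markers of CA1 pyramidal cells (8), CA3 pyramidal cells (8) and dentate gyrus granule cells (11) were above the signal filter on every array. On KO replicate 3, 11 thalamus markers had a median 2.73 above their WT means and the 8 CA1 markers a median of -1.52. On KO replicates 1 and 2 the thalamus medians were 0.27 and 0.24, and the CA1 medians 0.02 and 0.00. In bulk tissue, fewer cells of a type and less RNA per cell cannot be told apart. Differences that rest on KO replicate 3 are therefore also given without it.

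No channel gene passed an adjusted p of 0.05 in limma, with all arrays (lowest adjusted p = 0.586) or without KO replicate 3 (lowest 0.227). Over all genes, 0.062% passed with all arrays and 0.411% without KO replicate 3, and by probe set 0.0219% passed and no channel probe set (lowest adjusted p = 0.764). Most mean differences were small: 29 of the 39 were less than 0.3 in size on the log2 scale, a share that was not computed over all genes. A small mean can average KO arrays on both sides of WT, as in Kcnq5 (0.26, 0.39 and -0.76 from the WT mean). Of the 39, 17 were higher on average in KO hippocampus and 22 lower. The median difference was -0.04, against 0.01 over all genes tested. Without KO replicate 3 the median was 0.02, against 0.03 over all genes, and 12 of the 39 differences changed sign. The median SE was 0.15, and 0.10 without that array. At an unadjusted p under 0.05 there were 7 channel genes, 2 higher and 5 lower in KO (17.9% of the 39, against 7.48% of all genes, which were 4.69% higher and 2.79% lower). That count was 3 without KO replicate 1 (8.01% of all genes), 11 without KO replicate 2 (12.8%) and 9 without KO replicate 3 (13.9%). It was 0 without WT replicate 1 (3.07% of all genes), 1 without WT replicate 2 (4.32%) and 3 without WT replicate 3 (4.44%).

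In 7 channel genes the KO and WT arrays did not overlap. Kcnip3 and Kcnip4 were higher on all KO arrays (5.13% of the 39, against 9.56% of all genes), and Cacna1c, Cacna1e, Cacnb2, Kcnab2 and Kcnq3 were lower on all KO arrays (12.8%, against 7.13% of all genes). Together this is 17.9% of the channel genes and 16.7% of all genes, so the count as a whole was near that over all genes. The count was 12 without KO replicate 1 (26.9% of all genes), 20 without KO replicate 2 (35.0% of all genes) and 13 without KO replicate 3 (31.6% of all genes). In the last case 6 were higher and 7 lower, and over all genes 18.8% were higher and 12.8% lower. After median centring of the arrays it was 3 of 39, against 10.6% of all genes. A mean difference of at least 1.5-fold was found for 2 channel genes, Cacna1g and Cacna2d2, both higher in KO (4.15% of all genes were higher and 2.03% lower by that much), and both are described below with KO replicate 3.

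**Figure D1:**
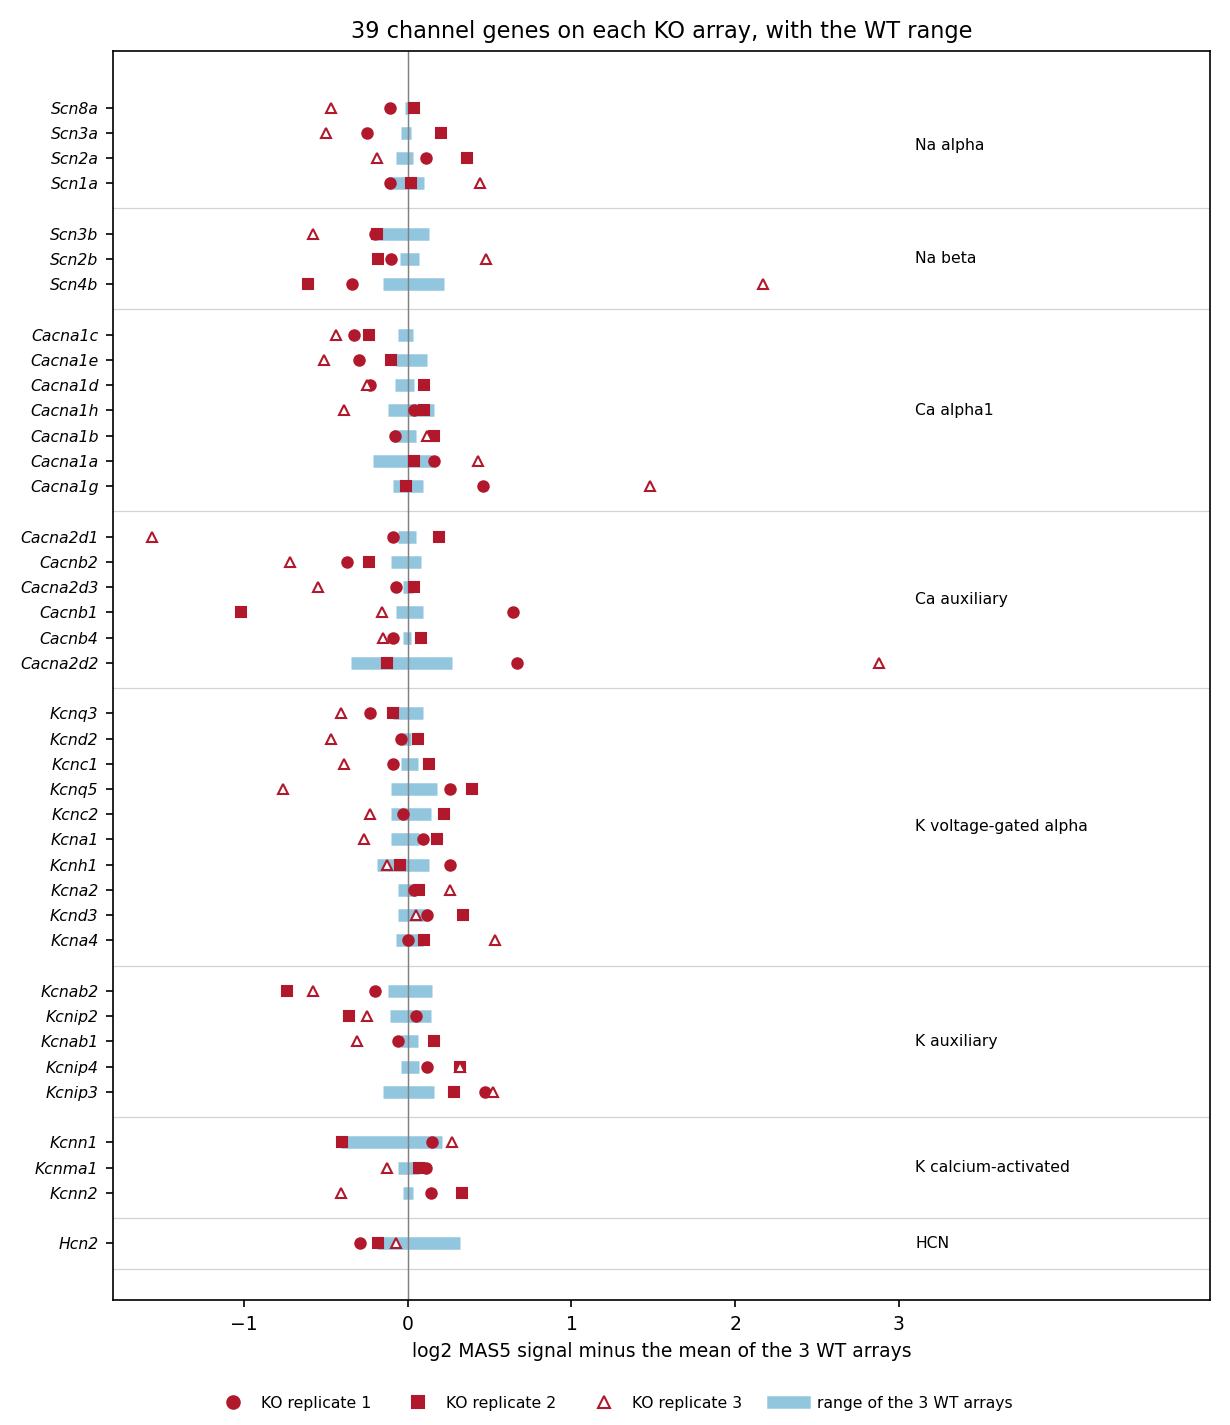
Log2 MAS5 signal of each of the 39 channel genes on the KO arrays, relative to the WT mean (x axis), by gene and class (y axis); red symbols are the 3 KO arrays and blue bars span the WT arrays. Mean differences are under 0.3 in size for 29 of the 39, and KO replicate 3 (open triangles) holds the extreme values, from Cacna2d1 on the left to Cacna2d2 on the right.

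Of the 5 lower genes, 4 have a promoter window in RefSeq (GRCm38.p6), and these are shown because the genes were lower together. Each window runs from 250 bases before to 50 after the transcript start annotated in RefSeq. Bases are given on the gene's strand, 5′ to 3′, with CpG dinucleotides in capitals. Starts were not measured here, and an annotated start need not be where transcription begins. In the Cacna1e window an ATG lies at the annotated start, which may be a coding start. Where a gene has several starts, the one richest in CpG is printed.
Cacna1c (chr6:119108446-119108745, minus strand): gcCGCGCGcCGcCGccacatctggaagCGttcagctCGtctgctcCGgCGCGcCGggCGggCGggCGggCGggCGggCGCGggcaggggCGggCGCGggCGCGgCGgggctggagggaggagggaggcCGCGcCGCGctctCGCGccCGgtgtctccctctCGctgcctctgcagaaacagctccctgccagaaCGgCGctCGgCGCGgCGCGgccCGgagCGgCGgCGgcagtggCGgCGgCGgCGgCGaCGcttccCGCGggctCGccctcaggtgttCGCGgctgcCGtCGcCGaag
Cacna1e (chr1:154725871-154726170, minus strand): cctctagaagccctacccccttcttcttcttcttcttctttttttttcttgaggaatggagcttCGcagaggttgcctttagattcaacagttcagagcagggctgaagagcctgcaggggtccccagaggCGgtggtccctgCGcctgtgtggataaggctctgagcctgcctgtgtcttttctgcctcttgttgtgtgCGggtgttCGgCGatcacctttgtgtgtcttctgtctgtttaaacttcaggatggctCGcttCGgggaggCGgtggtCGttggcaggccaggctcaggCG
Cacnb2 (chr2:14604056-14604355, plus strand): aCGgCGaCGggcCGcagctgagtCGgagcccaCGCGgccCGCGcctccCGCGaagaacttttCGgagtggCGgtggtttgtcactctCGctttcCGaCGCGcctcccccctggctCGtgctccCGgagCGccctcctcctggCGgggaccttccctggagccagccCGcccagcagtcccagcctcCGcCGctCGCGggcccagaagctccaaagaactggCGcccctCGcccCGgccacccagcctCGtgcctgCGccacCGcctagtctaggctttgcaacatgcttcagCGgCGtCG
Kcnab2 (chr4:152477500-152477799, minus strand): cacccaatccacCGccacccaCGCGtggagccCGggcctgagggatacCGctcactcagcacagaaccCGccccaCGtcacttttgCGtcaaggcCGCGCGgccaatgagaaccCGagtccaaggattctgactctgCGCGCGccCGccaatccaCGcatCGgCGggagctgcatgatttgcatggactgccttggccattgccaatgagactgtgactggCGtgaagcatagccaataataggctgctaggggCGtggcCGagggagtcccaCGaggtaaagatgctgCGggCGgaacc
The windows hold 57 CpG in Cacna1c, 35 in Cacnb2, 25 in Kcnab2 and 11 in Cacna1e. Cacna1c, Cacnb2 and Kcnab2 have other starts with 3 to 7 CpG, so the count depends on the start, and the array does not tell starts apart. Of the 42 channel genes, 34 have 56 windows in the table, with a median of 12.5 CpG, against 7 over 32851 windows of all genes. Windows with 20 or more CpG made up 44.6% of the channel windows and 26.5% of all windows. Of the 34 channel genes with windows, 24 have at least 1 with 20 or more CpG. The printed counts come from the richest start of each gene, so they are not comparable with medians and shares over all starts. The GC box GGGCGG, searched on both strands and itself holding a CpG, occurs 6 times in the printed window of Cacna1c, 2 times in Kcnab2, 1 time in Cacnb2 and not in Cacna1e. It was found in 46.4% of the channel windows and 35.7% of all windows. Such matches describe the letters only, since no binding or methylation was measured here.

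Among the 7 calcium channel pore subunits, 3 were higher and 4 lower on average, with a median difference of -0.08. Cacna1c and Cacna1e were the members of this class whose groups separated. Cacna1c, the L-type channel of neurons and heart that links calcium entry to gene expression, had 9.26, 9.35 and 9.15 on the KO arrays, against 9.62, 9.62 and 9.53 on the WT arrays. This is a difference of -0.34 (SE 0.12, adjusted p = 0.638 by limma), and -0.28 without KO replicate 3. The highest KO array was thus below the lowest WT array. A second, dimmer probe set of Cacna1c had 8.80, 8.76 and 7.82 on the KO arrays and 8.90, 8.94 and 8.92 on the WT arrays, without overlap and in the same direction.

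Cacna1e, the R-type channel, had 11.89, 12.10 and 11.69 on the KO arrays, against 12.31, 12.15 and 12.12 on the WT arrays (difference -0.30, SE 0.12, adjusted p = 0.659 by limma). KO replicate 2 lay just under the lowest WT array, and without KO replicate 3 the difference was -0.20. Its dim probe set differed by -0.31 with overlapping groups. Of the remaining pore subunits, Cacna1a (P/Q-type), Cacna1b (N-type), Cacna1d (L-type) and Cacna1h (T-type) differed by -0.13 to 0.21, and their groups overlapped. For Cacna1a the probe sets disagreed. The brightest had 8.82, 8.70 and 9.09 on the KO arrays and 8.80, 8.44 and 8.72 on the WT arrays, and a dimmer one had 8.02, 7.85 and 7.66 on the KO arrays, below 8.78, 8.36 and 9.02 on the WT arrays.

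Calcium channel auxiliary subunits were lower on average in 5 of 6 measured genes, with a median difference of -0.19, and of -0.01 without KO replicate 3. Cacnb2, a cytoplasmic beta subunit that brings high-voltage-activated channels to the membrane, had 9.89, 10.02 and 9.54 on the KO arrays, against 10.34, 10.29 and 10.16 on the WT arrays. The difference was -0.44 (SE 0.15, adjusted p = 0.628 by limma), and -0.30 without KO replicate 3. Its second probe set gave the same order, with 8.75, 8.79 and 8.77 on the KO arrays and 9.09, 9.53 and 9.40 on the WT arrays. The groups were apart in both. The beta subunit gene Cacnb4 had 11.80, 11.98 and 11.75 on the KO arrays and 11.91, 11.86 and 11.91 on the WT arrays, a difference of -0.05 that is less than its SE of 0.09.

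Of the 5 potassium channel partners, 2 were higher and 3 lower on average, and groups separated in both directions. Kcnab2, a cytoplasmic beta subunit of the Kv1 family with an oxidoreductase fold, had 11.70, 11.16 and 11.32 on the KO arrays, against 12.05, 11.86 and 11.78 on the WT arrays. With -0.51 (SE 0.15, adjusted p = 0.586 by limma) it had the lowest adjusted p of the channel genes, and the difference was -0.47 without KO replicate 3. Its second, dim probe set differed by -0.04 with overlapping groups. Kcnab1, the related beta subunit, had 12.00, 12.22 and 11.75 on the KO arrays and 12.03, 12.12 and 12.02 on the WT arrays, a difference of -0.07 (SE 0.13) that was 0.05 without KO replicate 3.

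KChIPs are calcium-binding partners of the A-type Kv4 channels, and Kcnip3 also encodes the transcriptional repressor DREAM. Kcnip4 had 10.93, 11.14 and 11.13 on the KO arrays, against 10.77, 10.88 and 10.78 on the WT arrays (difference 0.25, SE 0.11, adjusted p = 0.659 by limma). Kcnip3 had 7.57, 7.39 and 7.62 on the KO arrays, against 7.26, 6.95 and 7.10 on the WT arrays (difference 0.42, SE 0.18, adjusted p = 0.659 by limma). Both were above all WT arrays on each KO array, and without KO replicate 3 the differences were 0.22 and 0.38. Other probe sets did not show this order: those of Kcnip4 differed by -0.12 and 0.09, and the second one of Kcnip3 had 5.31, 5.42 and 7.47 on the KO arrays and 7.98, 5.08 and 7.84 on the WT arrays. Kcnip2, the KChIP gene whose product shapes the A-type current, differed by -0.18 (SE 0.14), and by -0.15 without KO replicate 3, with overlapping groups.

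**Figure D2:**
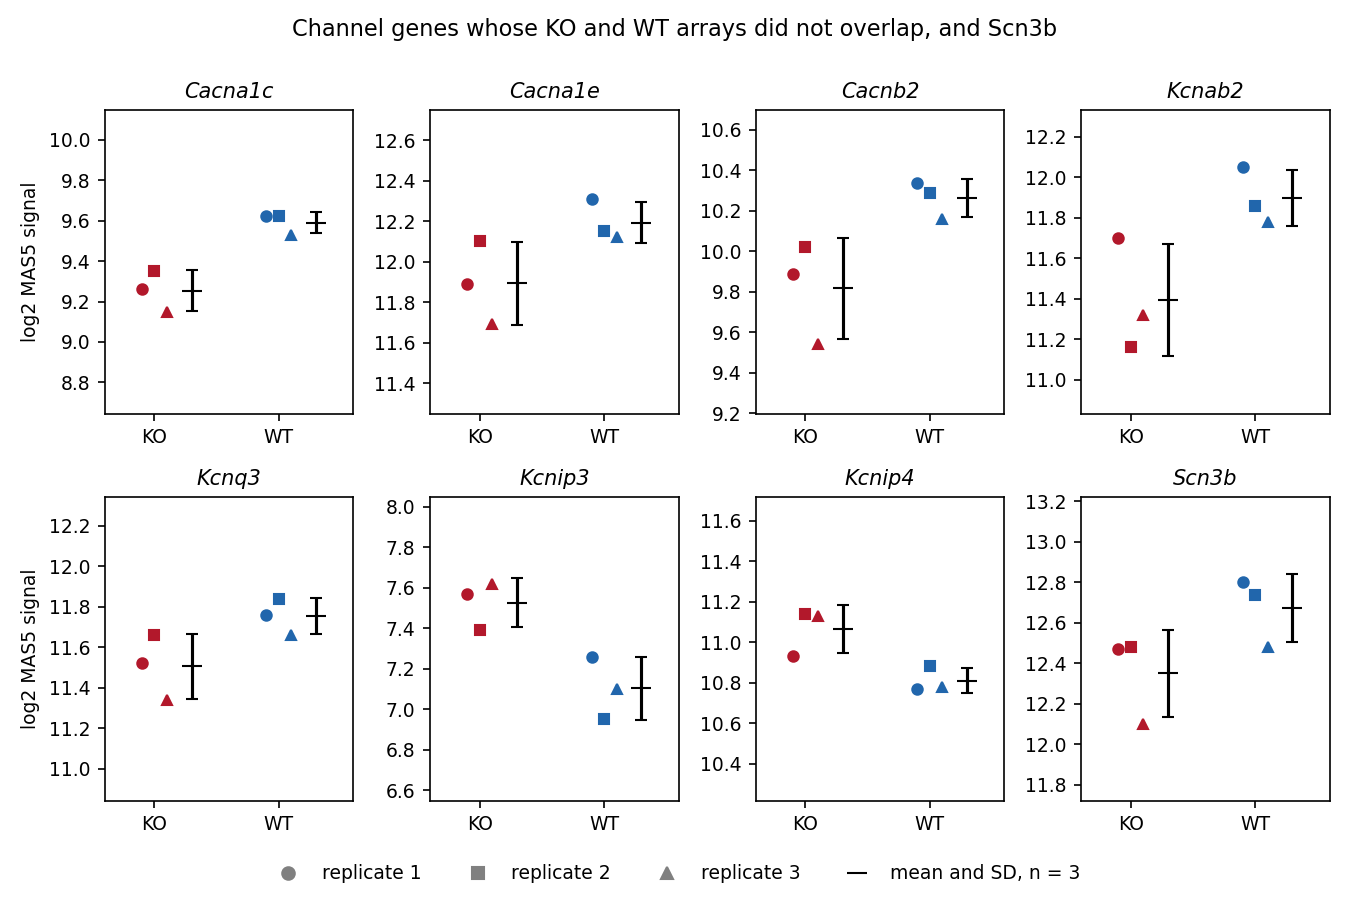
Log2 MAS5 signal (y axis, each panel with its own scale) of the 7 channel genes whose KO and WT arrays did not overlap and of Scn3b, by group (x axis); symbols are arrays, and black marks the mean and SD of 3. Cacna1c lies between 9.15 and 9.35 on the KO arrays and 9.53 and 9.62 on the WT arrays, while the lowest KO array of Kcnip4 (10.93) is just above its highest WT array (10.88).

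Of the 10 measured voltage-gated potassium channel pore subunits, 4 were higher and 6 lower on average, with a median of -0.01. Without KO replicate 3 the median was 0.07 with 9 higher and 1 lower. Over all genes it was then 0.03, with 7182 higher and 5721 lower. Relative to the WT means, the 10 subunits had medians of 0.02 on KO replicate 1 and 0.12 on KO replicate 2. Kcnq3, a subunit of the M-current channels that restrain repetitive firing, was the member whose groups separated. It had 11.52, 11.66 and 11.34 on the KO arrays, against 11.76, 11.84 and 11.66 on the WT arrays, with KO replicate 2 level with WT replicate 3 at the printed precision and just below it before rounding (difference -0.24, SE 0.11, adjusted p = 0.669 by limma, and -0.16 without KO replicate 3). A dimmer probe set had 7.75, 8.00 and 7.61 on the KO arrays and 8.11, 8.13 and 8.22 on the WT arrays, again lower on every KO array. Kcnd2, the main dendritic A-type channel of pyramidal cells, had 12.53, 12.62 and 12.10 on the KO arrays and 12.59, 12.54 and 12.58 on the WT arrays. Its difference of -0.15 (SE 0.14) was 0.01 without KO replicate 3. Kcnd3, its close relative, had 11.57, 11.80 and 11.50 on the KO arrays and 11.39, 11.40 and 11.58 on the WT arrays, a difference of 0.17, and 0.23 without KO replicate 3.

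Probe sets of the axonal channel Kcna1 and of Kcnc1, a channel of fast-spiking cells, differed among themselves. The brightest of Kcna1 had 12.40, 12.49 and 12.05 on the KO arrays and 12.34, 12.38 and 12.21 on the WT arrays, and a second had 11.88, 11.61 and 11.96 on the KO arrays, below 12.08, 12.04 and 12.00 on the WT arrays. For Kcnc1, a dimmer probe set had 9.36, 9.49 and 9.25 on the KO arrays, above 9.22, 9.16 and 9.23 on the WT arrays, while the brightest differed by -0.12 with overlap. Of the 91 kept channel probe sets, 3 did not overlap and were higher in KO, against 7.37% of all kept probe sets, and 11, or 12.1%, were lower, against 7.83%. The 11 lie in 8 genes. In 3 of the genes, Cacna1c, Cacnb2 and Kcnq3, every kept probe set was lower without overlap. In no channel gene did probe sets separate in opposite directions. How often these patterns occur over all genes with several kept probe sets was not computed. Probe sets of the same gene were read on the same arrays, so their agreement is not independent evidence. Among the 31 genes with several kept probe sets, 15 had differences of both signs.

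**Figure D3:**
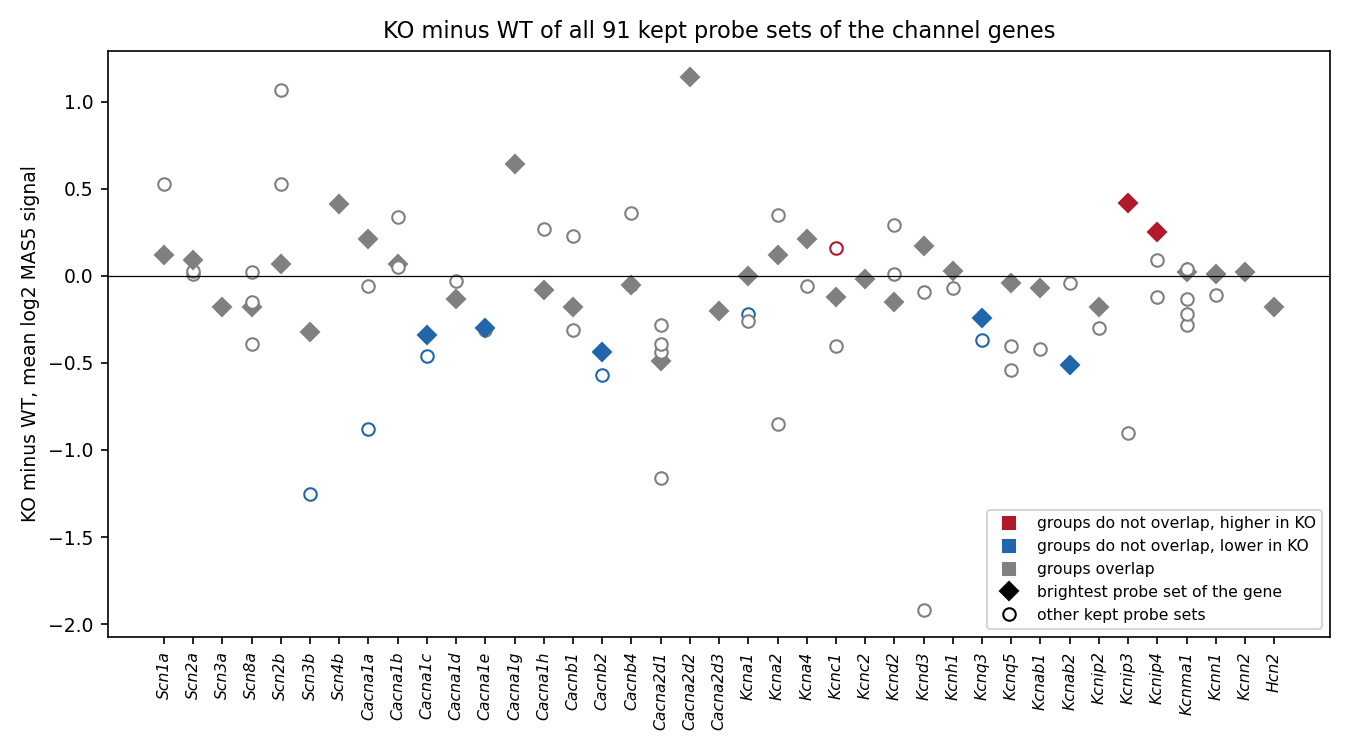
Mean log2 MAS5 signal of KO minus WT (y axis) for the 91 kept probe sets of the 39 channel genes (x axis); diamonds are the brightest probe set of a gene, circles the others, and colour marks groups that do not overlap. Cacna1c, Cacnb2 and Kcnq3 have a blue diamond and a blue circle, and the red diamond of Kcnip3 at 0.42 stands above a grey circle at -0.90.

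Sodium channel pore subunits were measured for 4 genes, 2 higher and 2 lower on average, with no separation of the groups. Scn2a, the channel of axon initial segments and unmyelinated axons, had 12.87, 13.11 and 12.56 on the KO arrays, against 12.69, 12.79 and 12.79 on the WT arrays. KO replicates 1 and 2 were above all WT arrays and KO replicate 3 below them, so that the difference was 0.09 (SE 0.14) with all arrays and 0.24 without KO replicate 3 (adjusted p = 0.252 by limma). Dimmer kept probe sets of Scn2a differed by -0.03 and 0.26 without KO replicate 3. Scn8a, the main channel of mature initial segments, and Scn3a, mostly a channel of the developing brain, both differed by -0.18, and by -0.04 and -0.02 without KO replicate 3. Scn1a, a channel of inhibitory interneurons, had 10.77, 10.90 and 11.31 on the KO arrays and 10.76, 10.89 and 10.98 on the WT arrays.

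Of the 3 sodium channel beta subunits, Scn3b, an auxiliary subunit that modifies inactivation, had 12.47, 12.48 and 12.10 on the KO arrays, against 12.80, 12.74 and 12.48 on the WT arrays. The difference was -0.32 (SE 0.14, adjusted p = 0.659 by limma) and the groups met at 12.48; without KO replicate 3 it was -0.20. Its dimmer probe set was lower without overlap, with 8.43, 6.92 and 7.19 on the KO arrays and 8.95, 8.66 and 8.68 on the WT arrays, but KO replicate 1 lay much closer to WT there than the others did. Without KO replicate 3 all 3 beta subunits were lower on average, with a median of -0.20, while with it the median was 0.07.

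Calcium-activated potassium channels, which set the afterhyperpolarisation, differed by 0.01 to 0.02 in the 3 measured genes. Kcnn2, the SK channel of pyramidal cell spines, had 10.66, 10.85 and 10.11 on the KO arrays, against 10.55, 10.51 and 10.49 on the WT arrays. As for Scn2a, the first KO arrays were above WT and KO replicate 3 below, and the difference of 0.02 (SE 0.19) was 0.23 without KO replicate 3 (adjusted p = 0.314 by limma). Hcn2, the HCN channel in the set, had 7.96, 8.07 and 8.18 on the KO arrays and 8.12, 8.06 and 8.57 on the WT arrays, a difference of -0.18 that equals its SE of 0.18, and -0.23 without KO replicate 3.

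KO replicate 3 was the highest or lowest of the 6 arrays for 31 of the 39 channel genes, highest for 10 and lowest for 21, or 79.5%, against 69.2% of all genes. It lay at least 1.5-fold outside the other 5 arrays for 5 of them (12.8%, against 14.8% of all genes). Cacna2d2, an alpha2delta subunit known from cerebellar Purkinje cells, had 9.63, 8.82 and 11.84 on the KO arrays, against 8.61, 9.03 and 9.23 on the WT arrays. This was the largest difference of the channel genes, 1.14 (SE 0.68, adjusted p = 0.693 by limma), and 0.27 without KO replicate 3. Cacna1g, the T-type channel that drives burst firing of thalamic relay cells, had 8.49, 8.02 and 9.51 on the KO arrays, against 8.12, 7.94 and 8.03 on the WT arrays (difference 0.64, SE 0.35, adjusted p = 0.681 by limma, and 0.22 without KO replicate 3). In both, KO replicate 2 lay within the WT range. Scn4b, a beta subunit linked to resurgent current, had 7.36, 7.09 and 9.87 on the KO arrays and 7.92, 7.64 and 7.55 on the WT arrays. Its difference was 0.41 with all arrays and -0.48 without KO replicate 3 (adjusted p = 0.314 by limma).

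In the other direction, Cacna2d1, the alpha2delta subunit that binds gabapentin, had 12.60, 12.88 and 11.13 on the KO arrays and 12.70, 12.74 and 12.63 on the WT arrays (difference -0.49, SE 0.40, and 0.05 without KO replicate 3). On its dimmer probe sets KO replicate 3 lay -3.25, -1.21, -0.24 and -0.06 from the WT mean. Without KO replicate 3 these probe sets differed by -0.11, 0.19, -0.54 and -0.56. Kcnq5, another M-current subunit, had 10.55, 10.69 and 9.53 on the KO arrays and 10.22, 10.20 and 10.48 on the WT arrays, a difference of -0.04 that was 0.33 without KO replicate 3 (adjusted p = 0.256 by limma). Dimmer probe sets of Kcnq5 differed by -0.07 and -0.79 without KO replicate 3, which itself lay -1.48 and 0.36 from their WT means. For 6 channel genes (15.4%, against 10.4% of all genes) KO replicates 1 and 2 lay on one side of the WT range and KO replicate 3 on the other: Kcna1, Kcnn2, Kcnq5 and Scn2a with KO replicate 3 below, and Scn2b and Scn4b with it above. This is read from the brightest probe set, and other kept probe sets of Kcna1, Kcnq5, Scn2a and Scn2b did not all show it. The signals of all 11 measured thalamus markers were summed, and the log2 of that sum was 15.15 on KO replicate 3. It was 12.66 and 12.75 on the other KO arrays and 12.21 to 12.41 on the WT arrays. For the 8 CA1 markers the log2 of the sum was 12.94 on KO replicate 3. It was 13.77 and 13.89 on the other KO arrays and 13.72 to 13.83 on the WT arrays. The part of these marker shifts in the channel values of KO replicate 3 was not tested.

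**Figure D4:**
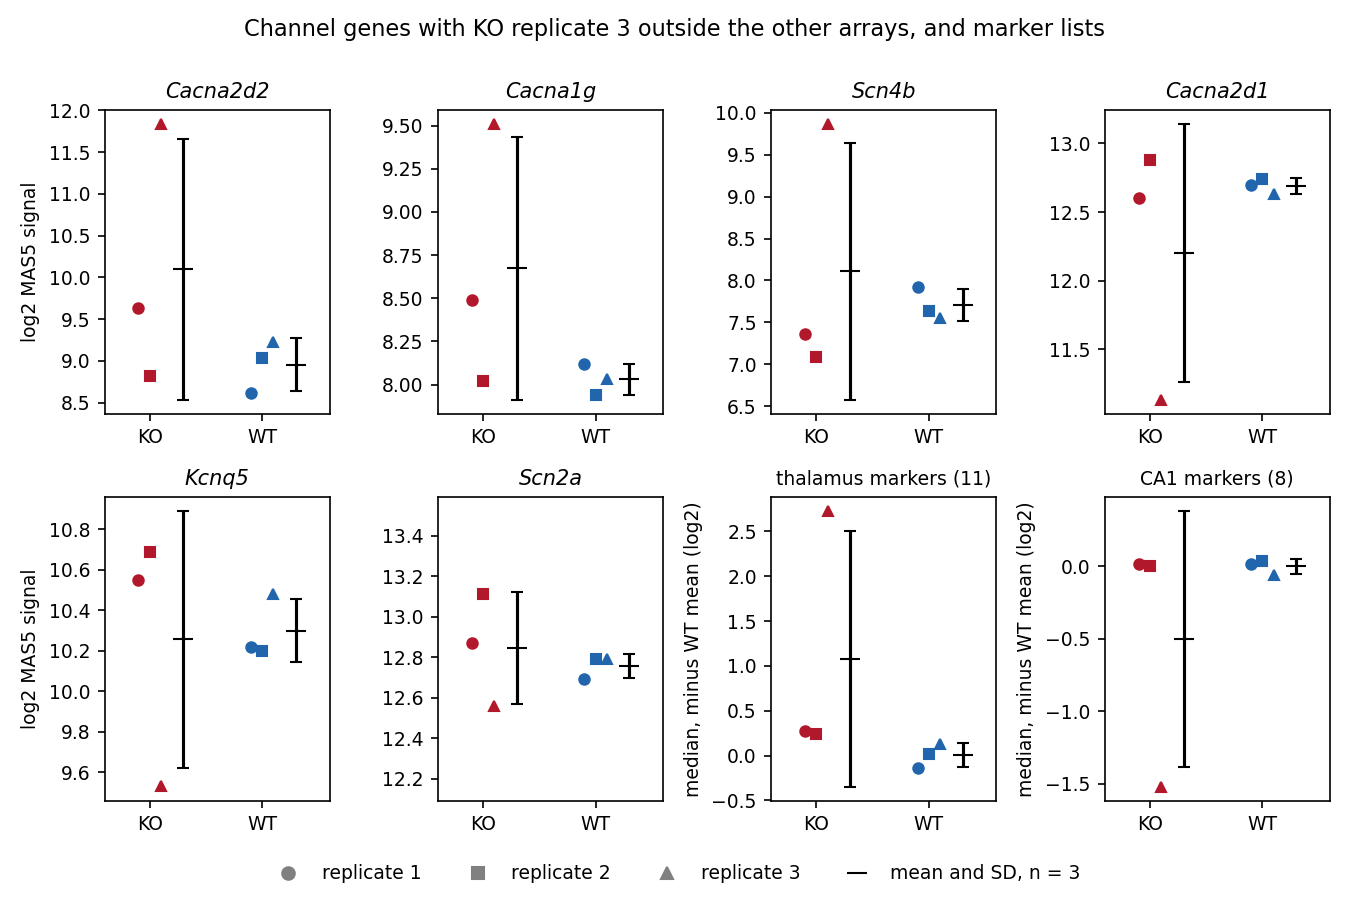
Log2 MAS5 signal (y axis, each panel with its own scale) of 6 channel genes by group (x axis), and the median of 11 thalamus and 8 CA1 markers relative to their WT means in the last panels; symbols are arrays, and black marks the mean and SD of 3. KO replicate 3 (triangles) is at 11.84 for Cacna2d2 and 11.13 for Cacna2d1, and at 2.73 and -1.52 for the marker lists.

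Dentate gyrus granule cell markers were lower on average in 10 of 11 genes, 3 of them without overlap (7.13% of all genes). Relative to the WT means, these markers had medians of -0.18, -0.19 and -0.31 on the KO arrays, against 0.16, 0.09 and -0.26 on the WT arrays. The log2 of their summed signal was 14.18 to 14.34 on the KO arrays and 14.28 to 14.55 on the WT arrays. Oligodendrocyte markers had medians of 0.22, 0.35 and 0.29 on the KO arrays and -0.13 to 0.07 on the WT arrays. Of 9 measured, 4 were higher and 1, Mbp, was lower without overlap (9.56% and 7.13% of all genes). The log2 of their summed signal was 15.71 to 15.92 on the KO arrays and 15.70 to 15.83 on the WT arrays. Ependyma markers were higher on average in 9 of 9 genes, 4 of them without overlap (9.56% of all genes). The medians of these markers were 0.48, 0.24 and 1.0 on the KO arrays and -0.18 to 0.30 on the WT arrays. The log2 of their summed signal was 11.08 to 12.11 on the KO arrays and 10.61 to 11.19 on the WT arrays. Thalamus markers were higher on average in 11 of 11 genes, 5 of them without overlap (9.56% of all genes). Their medians were 0.27, 0.24 and 2.73 on the KO arrays and -0.14 to 0.13 on the WT arrays. Without KO replicate 3, 10 thalamus markers were higher and 1 lower, with a median difference of 0.18. The median difference of the other lists was 0.14 for interneuron, 0.02 for astrocyte, -0.13 for CA3 and -0.31 for choroid plexus markers. Without KO replicate 3 these medians were 0.10, 0.02, 0.01 and 0.79, so the direction for CA3 and choroid plexus rested on that array. Choroid plexus markers had medians of 1.33, 0.27 and -1.57 on the KO arrays. Their WT arrays also lay apart, with 0.07 and 0.89 on WT replicates 1 and 2 and a lower value on WT replicate 3. Erythrocyte genes gave no exact difference, since all 4 measured ones were above the signal filter on the 3 WT arrays, and on 0 or 1 of the KO arrays. The log2 of their summed signal was 6.91 to 7.87 on the KO arrays, and 10.83 to 11.02 on the WT arrays. How far these shifts enter the lower signals of Cacna1c, Cacna1e, Cacnb2, Kcnab2 and Kcnq3 or the higher ones of Kcnip3 and Kcnip4 was not tested.

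Of 63 further voltage-gated channel and partner genes, 33 were measured, 20 higher and 13 lower on average, with a median difference of 0.08. None passed the adjusted threshold in limma (0.062% of all genes). An unadjusted p under 0.05 was found for 3 of the 33, all higher in KO (7.48% of all genes, with 4.69% higher). Of the 29 above the signal filter on all arrays, 5 were higher and 1 lower without overlap. Of all 11681 genes above it on all arrays, 1138 were higher and 839 lower without overlap. Hcn3, another HCN channel, had 7.52, 7.21 and 7.24 on the KO arrays, against 6.51, 6.79 and 6.77 on the WT arrays (difference 0.64, SE 0.20, adjusted p = 0.586 by limma). Cacng4, a TARP that traffics AMPA receptors and is related to calcium channel gamma subunits, had 8.05, 7.91 and 8.21 on the KO arrays and 7.10, 7.38 and 7.74 on the WT arrays. Without KO replicate 3 their differences were 0.68 and 0.57. Dpp10, a Kv4 partner, differed by 0.99 with overlapping groups, and by 0.54 without KO replicate 3. Kcnh8 was above the signal filter on the 3 KO arrays and on 0 of the WT arrays, so its higher KO signal is what let it enter the comparison.

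Of 31 inward rectifier, sodium-activated and 2-pore potassium channel genes, which set the resting potential or its modulation, 20 were measured, 14 higher and 6 lower on average, with a median of 0.15. None passed the adjusted threshold in limma, and 1 of the 20 had an unadjusted p under 0.05, against 7.48% of all genes. Of the 20, 4 were higher and 0 lower without overlap, where 9.56% of all genes were higher and 7.13% lower. Kcnk2, a mechanosensitive leak channel, had 10.41, 10.44 and 10.09 on the KO arrays, against 10.01, 9.96 and 10.00 on the WT arrays (difference 0.32, SE 0.13, adjusted p = 0.659 by limma, and 0.43 without KO replicate 3). Kcnj16, an inward rectifier of glia and kidney, differed by 0.38 without overlap. Kcnt1 differed by 0.85 and by 0.22 without KO replicate 3, and Kcnt2 by -0.29, both with overlapping groups.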

How the data were processed

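Hippocampus RNA of 3 KO and 3 WT samples was hybridised to Affymetrix arrays. The deposited values are log2 MAS5 signals per probe set, which the authors scaled to a common level: the mean signal after trimming 2% at each end is 497.5 to 498.2 on each array, and the median log2 signal 6.55 to 6.90. MAS5 and affy appear in the submitters' processing notes, with no version, and the study's methods used GeneSpring and removed probes called Absent. Those calls were not used here.

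A probe set was kept (27408 of 45037) if 3 or more of the 6 arrays had it above their 40th percentile, and the brightest kept one stood for a gene, counting only those with 1 symbol in the platform annotation. That annotation names 1 gene for 34945 probe sets, several for 932 and does not hold 9160. All 39 channel genes compared were above that level on every array. Differences of KO minus WT came from limma 3.58.1 under R 4.3.3 (lmFit, eBayes with trend), over 12903 genes and over all kept probe sets, with Benjamini-Hochberg adjustment. The fit was tested on simulated data. Precision is limited by the number of arrays, 3 in each group, and the smallest p of an exact permutation test is 0.1.

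The members, comparison lists and marker lists were chosen with earlier results of these data known. Values on every array are given for members without overlap between groups, with an unadjusted p under 0.05 or a 1.5-fold difference, or with the highest WT signal of their class, and up to 4 genes with the smallest p are named for each channel list. Scn1a, Scn4b, Kcnq5, Kcnd3, Cacnb4, and the disagreeing probe sets of Cacna1a, Kcna1, Kcnc1 and Kcnip3 were added after their values were seen. Promoter windows and symbols are from RefSeq (GRCm38.p6). Alternatives were quantile normalization, median centring, other filters, an offset of 16 signal units, other variance models, array weights, a replicate block, the mean of the kept probe sets, and leaving out each array.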

Additional observations from a re-analysis of the deposited data

How the results depend on the processing

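No channel gene passed an adjusted p of 0.05 in limma under any of the 10 alternatives or the 6 fits without 1 array; at an unadjusted p under 0.05 there were 7 genes with all arrays and settings as described. That count was 1 after median centring (4.57% of all genes, against 7.48%), 4 without the variance trend (7.60%) and 3 with the mean of the kept probe sets (7.01%), and it ranged from 0 to 11 when 1 array was left out. The count of genes without overlap, 7, was 3 after median centring (10.6% of all genes, against 16.7%) and ranged from 8 to 20 when 1 array was left out, where fewer arrays make overlap less likely. Of 255 alternative values for the 16 genes chosen by the rule given above, 246 kept their direction and 9 changed it. Genes added later, such as Scn4b and Kcnq5, are not in this count. Without KO replicate 3, 12 of all 39 channel genes changed sign. Among the 16, direction changed with the mean of the kept probe sets for Kcnd2 (0.05) and Kcnip3 (-0.24), and with median centring for Kcnn2 (-0.01). Leaving out 1 array gave -0.82 to 0.05 for Cacna2d1, -0.19 to 0.05 for Kcnab1, -0.25 to 0.01 for Kcnd2, -0.14 to 0.23 for Kcnn2 and -0.04 to 0.24 for Scn2a. Apart from the arrays left out, the cause was not tested.

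The replicate numbers are not known to pair the samples: same-numbered KO and WT arrays had deviations correlated at -0.038, 0.066 and 0.131. With the replicate block, 5 genes had an unadjusted p under 0.05 (6.74% of all genes) and 0 passed the adjusted threshold (0.031% of all genes). The count of genes without overlap is read from the array values, so the block cannot change it. The default array weights did not converge and were not run. Gene-by-gene weights, chosen after seeing the data, gave 9 genes at an unadjusted p under 0.05, where 16.3% of all genes passed.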

Other observations

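Among the channel genes that were not described with their values, Cacnb1, a calcium channel beta subunit of muscle and brain, had the widest spread that did not come from KO replicate 3, with 8.86, 7.20 and 8.06 on the KO arrays and 8.31, 8.15 and 8.19 on the WT arrays. KO replicate 2 was the highest of the 6 arrays for 17 of the 39 channel genes and the lowest for 5, which is 56.4%, against 44.1% of all genes. A dim probe set of Kcnd3 had 7.59, 6.33 and 2.13 on the KO arrays and 7.67, 6.85 and 7.29 on the WT arrays, so that its value on KO replicate 3 alone set a large mean difference. Of the genes too dim to compare, Kcnh7 had 5.38, 5.15 and 2.71 on the KO arrays and 3.34, 4.70 and 5.07 on the WT arrays, and Kcnn3 had 2.65, 1.76 and 2.54 on the KO arrays and 1.63, 1.95 and 1.83 on the WT arrays.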
